A study of Mus musculus with 20 samples.

Results

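The cytosolic ribosomal protein genes of the mouse were described across 20 RNA sequencing libraries of hippocampus and cortex. They were taken by symbol, as genes named Rpl or Rps followed by a number and at most 1 further letter of a fixed set, together with Rplp0, Rplp1, Rplp2 and Rpsa. Of 55487 genes in the count files 83 symbols had this form, 3 of them were annotated pseudogenes (Rps4l, Rpl32l and Rpl6l), and the remaining 80 are the genes described here. They comprise 43 proteins of the large subunit, 30 of the small subunit, 3 proteins of the P stalk and 4 duplicated copies (Rpl3l, Rpl10l, Rpl39l and Rps27l). The rule used symbols and the pseudogene annotation and no measured value, though it was set with earlier results of these data known. All mice were of the NMRI stock and had undergone olfactory bulbectomy, removal of the olfactory bulbs. Starting 14 days after surgery each mouse was given a recombinant protein through the nose daily for 21 days, either human HSP70 at 4 µg or YB-1 at 6.4 µg. HSP70 is a chaperone that assists protein folding, and YB-1 is a cold shock domain protein that binds mRNA and takes part in its translation. The 4 groups are hippocampus with HSP70, hippocampus with YB-1, cortex with HSP70 and cortex with YB-1, with 5 libraries each. Libraries from sham-operated or untreated mice were not analysed here, so a gene higher with YB-1 may equally be read as lower with HSP70.

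Each cytosolic ribosome carries a single copy of most of these proteins, assembled with ribosomal RNA in the nucleolus into a large and a small subunit. The small subunit decodes the mRNA, the large subunit joins amino acids, and the acidic P stalk recruits translation factors. Ribosomal protein mRNAs begin with a 5′ terminal oligopyrimidine (TOP) tract, a cytosine followed by further pyrimidines, through which the mTOR kinase and the RNA-binding protein Larp1 set their translation. In brain such mRNAs are also found in neuronal processes, and the mammalian genome carries many processed copies of them, made by reverse transcription.

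RefSeq start sites of the GRCm38.p6 assembly were available for 60 of the 80 genes, with 72 promoters. A cytosine at the annotated first base followed by at least 4 further C or T bases, on the strand of the gene, was found in 13 of these promoters (18.1%), against 823 of all 32851 promoters (2.51%). With a start allowed up to 5 bases to either side the shares were 41.7% and 18.4%. A missing match says only that these letters are not in this window. The following stretches, 10 bases before and 20 bases from the start, are from members in which the tract was found at the annotated start, and are shown so that it can be read. Capitals mark the tract.
Rpl28, chr7:4792955-4792984, plus strand: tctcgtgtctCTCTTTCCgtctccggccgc
Rpl35, chr2:39005112-39005141, minus strand: ccgccctttcCTCTTTCTCTCgaaccaggc
Rpl38, chr11:114668570-114668599, plus strand: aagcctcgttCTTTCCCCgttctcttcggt
Rplp2, chr7:141447641-141447670, plus strand: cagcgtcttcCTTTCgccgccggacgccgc
Rps10, chr17:27635225-27635254, minus strand: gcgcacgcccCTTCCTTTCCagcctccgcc
Rps18, chr17:33955646-33955675, minus strand: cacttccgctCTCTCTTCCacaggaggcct
Rps27, chr3:90213629-90213658, minus strand: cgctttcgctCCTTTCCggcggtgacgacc
Rps6, chr4:86857348-86857377, minus strand: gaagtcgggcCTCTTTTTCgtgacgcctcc
The tract was 5 bases long in Rplp2 and 11 in Rpl35. These matches describe the annotated sequence and were not set against any measured value.

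The libraries held 6414215 to 15148078 reads assigned to genes. The cortical HSP70 libraries (12283392 to 15148078) lay above all cortical YB-1 libraries (6414215 to 10763465), so that in the cortex treatment cannot be told apart from what set this depth. Markers of hippocampal neurons summed to 593 to 892 CPM (read counts relative to a library size scaled by the trimmed mean of M-values, TMM) in the hippocampal libraries and to 225 to 463 in the cortical ones. Markers of cortical neurons summed to 660 to 899 in cortex and to 187 to 298 in hippocampus, so each library matched its labelled tissue. The labels call the libraries of a group separate samples but name no animal, and p-values measure the spread between these libraries. In bulk tissue, fewer cells of a type and less RNA per cell cannot be told apart.

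Between 2.47% and 3.89% of each library's assigned reads fell on the ribosomal protein genes. Divided by transcript length, the mean level over the 20 libraries had a median of 463 CPM per kilobase in the small subunit, 343 in the large subunit and 1421 in the P stalk. The highest levels per kilobase were those of Rplp1, an acidic stalk protein (3050 CPM per kilobase), Rps15 (2819) and Rps14 (2426), both of the small subunit. In CPM, Rplp1 stood at 957, 1121, 1716, 1060.1 and 3113 in the 5 hippocampal HSP70 libraries, 1049.5, 2298, 1363, 2288 and 1491 with YB-1, 818, 1458, 1033, 1440 and 1766 in cortex with HSP70 and 1534, 2089.9, 1125, 1334 and 1384 with YB-1, in the order of the replicate numbers. Rps15 ran from 854 to 2290 CPM, and Rps14 from 528 to 2598. For all 3 genes the 4 groups overlapped, with the highest value of each in hippocampal HSP70 library 5.

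The lowest levels belonged to 3 of the duplicated copies and to a pair of regular subunit genes. Rpl3l, known from heart and skeletal muscle, had 0 to 7 reads in a library and a mean of 0.118 CPM per kilobase. Rpl39l, known from testis, had 0 to 7 reads and 0.234 CPM per kilobase, and Rpl10l, also known from testis, had 0 reads in all 20 libraries. With 3 reads as the limit that a count of 0 allows, Rpl10l lay below 0.198 to 0.468 CPM in a single library, by counting error only. Rpl24, a protein of the large subunit, had 0 to 2 reads, and Rps10, of the small subunit, had 2 to 25. Of the 50-base windows of the Rpl24 transcript 81.7% also occur in transcripts of another gene, most often Gm28037, and of Rps10 92.4%, most often the readthrough gene RPS10-NUDT3. Neither of these other genes had a read in any library. What share of their mRNA these reads stand for was not tested.

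Such sharing was common. In 46 of the 80 genes (57.5%) at least 50% of the windows were also found in another gene, and over all 80 the median share was 53.6%. The 46 had a median of 431 CPM per kilobase. The 34 others include all 4 duplicated copies, and the 30 of them without these copies had a median of 407. Rps3 shared 3.0% of its windows and stood at 466 CPM per kilobase, and Rps27 shared 98.6% and stood at 1350. Rpl29 (78.5% shared) and Rpl23a (82.6%) were counted at 15.8 and 13.5 CPM per kilobase, below all other genes of the large subunit except Rpl24. The part of shared sequence in these levels was not tested.

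**Figure D1:**
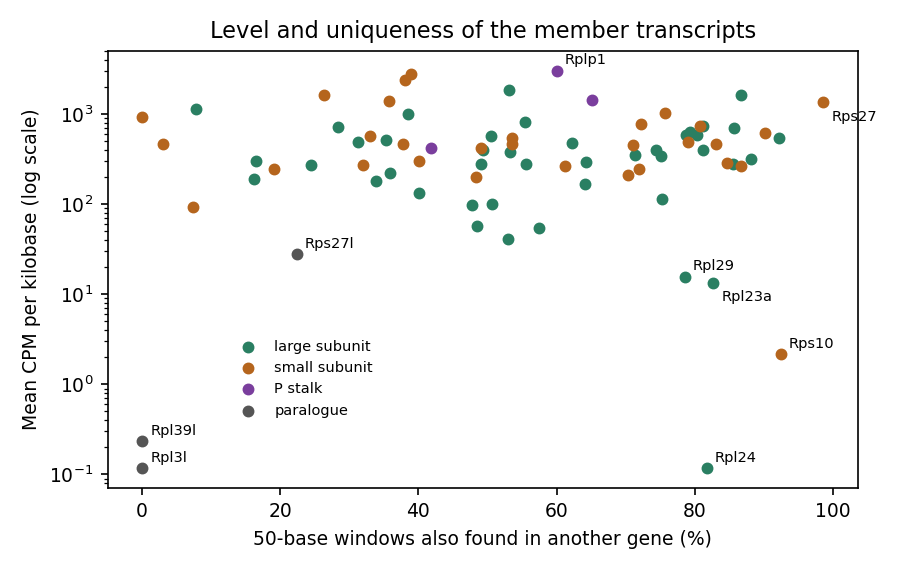
Mean level of each member over the 20 libraries (CPM per kilobase of transcript, log axis) against the percentage of its 50-base windows that also occur in another gene's transcripts. Points are genes, coloured by subunit, and Rpl10l, at 0 reads, is not drawn; Rpl24 and Rps10 lie far below the other genes with a high shared percentage.

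Among the duplicated copies only Rps27l, a relative of Rps27 known as a p53 target, passed the filter on low counts. It stood at 10.7, 17.3, 16.1, 10.6 and 21.04 CPM in hippocampus with HSP70, 16.9, 21.2, 14.1, 22.2 and 17.9 with YB-1, 12.2, 8.03, 9.10, 9.73 and 12.4 in cortex with HSP70 and 14.02, 13.02, 10.5, 12.3 and 11.8 with YB-1. The hippocampal YB-1 libraries lay just above the cortical ones, and with HSP70 the tissues overlapped. Rps27 itself was counted at 291, 406, 500.3, 243 and 874 CPM, 328, 607, 436, 692 and 443, 267, 333, 237, 426 and 651 and 507, 544, 393, 668 and 471 in the same order of groups, 1350 CPM per kilobase against 28.2 for Rps27l. Rpl3, which lies near the peptidyl transferase centre, ran from 589 to 1367 CPM, Rpl10, which is needed for the joining of the subunits, from 267 to 679, Rpl39, at the exit tunnel, from 87.7 to 160, and Rps4x, encoded on the X chromosome, from 553 to 1100.4. Each of these parents overlapped between the 4 groups. Rps4l, which the symbol rule would take but which is annotated as a transcribed pseudogene, had 70 to 240 reads.

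The main variation of these genes lay between libraries of the same group. The summed level of the 80 genes was 21783, 25239, 30525, 26297 and 44927 CPM in the hippocampal HSP70 libraries 1 to 5, and 22215, 36261, 28929, 44140 and 27767 CPM in those with YB-1. In the cortex it was 21763, 28687, 26340, 31320 and 34397 CPM with HSP70 and 30067, 36149, 23850, 34813 and 27499 CPM with YB-1. Hippocampal HSP70 library 5 and hippocampal YB-1 library 4 were highest, library 1 was lowest in each of the 3 groups other than cortical YB-1, and all groups overlapped. The ratio of large to small subunit sums stayed between 1.19 and 1.34.

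**Figure D2:**
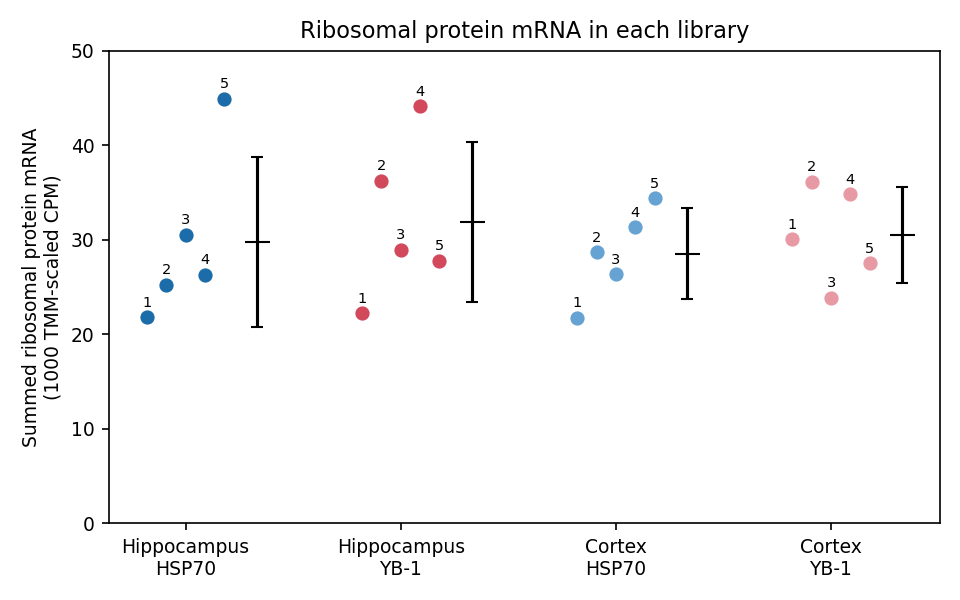
Summed CPM of the 80 ribosomal protein genes in each library (in units of 1000 CPM, linear axis from 0), with the replicate number over each point and the mean and SD of each group of 5 in black. The hippocampal libraries with HSP70 run from 21783 to 44927 CPM and overlap every other group.

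The members moved together from library to library. Over the 76 genes that passed the filter, the deviations of log2 CPM from the group mean had a median pairwise correlation of 0.66 (2850 pairs, 20 libraries), and 65 of the 76 genes correlated above 0.5 with the mean of the others. These correlations are descriptions, since the points share libraries, depth and scaling. Rps21 (0.97) and Rpl13 (0.97) followed the mean most closely. Rpl4, a large subunit protein with an internal extension into the exit tunnel, did not (-0.25), nor did Rps10 (-0.18) or Rpl34 (0.10). Rps10 had only 2 to 25 reads in a library, so counting error weighs on its value. Rpl4 stayed within 376 to 587 CPM in all libraries. In hippocampal HSP70 library 5, 74 of 76 members lay above their group mean, with a median deviation of 0.57 log2 units, and in YB-1 library 4 it was 75 of 76, with 0.44. In hippocampal HSP70 library 1 none did (0 of 76, median -0.38), and in YB-1 library 1 only 3 of 76 (median -0.45).

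Several other groups of transcripts varied with them, not all of them in both tissues. The mean deviation of the members correlated at 0.91 over the 20 libraries with that of the 77 mitochondrial ribosomal protein genes (0.97 in hippocampus and 0.75 in cortex, 10 libraries each). For 46 nuclear genes of the respiratory chain the value was 0.87 (0.96 and 0.62), and for Bc1, a short noncoding RNA of neurons, 0.88 (0.94 and 0.77). For 22 elongation factors and other TOP genes it was 0.74, but with 0.94 in hippocampus and -0.10 in cortex. For 39 genes of ribosome biogenesis, such as nucleolar assembly factors, it was 0.02 (0.49 and -0.49), and for 25 genes of the mTOR pathway and of TOP regulation -0.41 (-0.48 and -0.22). Bc1 stood at 239705 CPM in hippocampal HSP70 library 5 and at 235990 CPM in YB-1 library 4, above all other libraries (34483 to 197434). Transcript length moved with the level in some libraries and not in others. Among other protein-coding genes, the median deviation in hippocampal HSP70 library 5 was 0.35 log2 units for 872 genes under 1000 bases, 0.16 for those from 1000 to under 2000, -0.03 from 2000 to under 4000 and -0.24 for 4068 genes of 4000 bases or more. In hippocampal HSP70 library 1 the order was the opposite, from -0.20 in the shortest class to 0.22 in the longest. Cortical HSP70 library 5 had the members high (median deviation 0.29, 71 of 76 above the group mean) with hardly any order by length, from 0.02 in the shortest class to -0.01 in the longest. In cortical HSP70 libraries 2 and 3 the members lay below their group mean (-0.04 and -0.07) and the shortest class above it (0.05 and 0.06). The part of length in the level of the ribosomal protein genes was not tested.

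**Figure D3:**
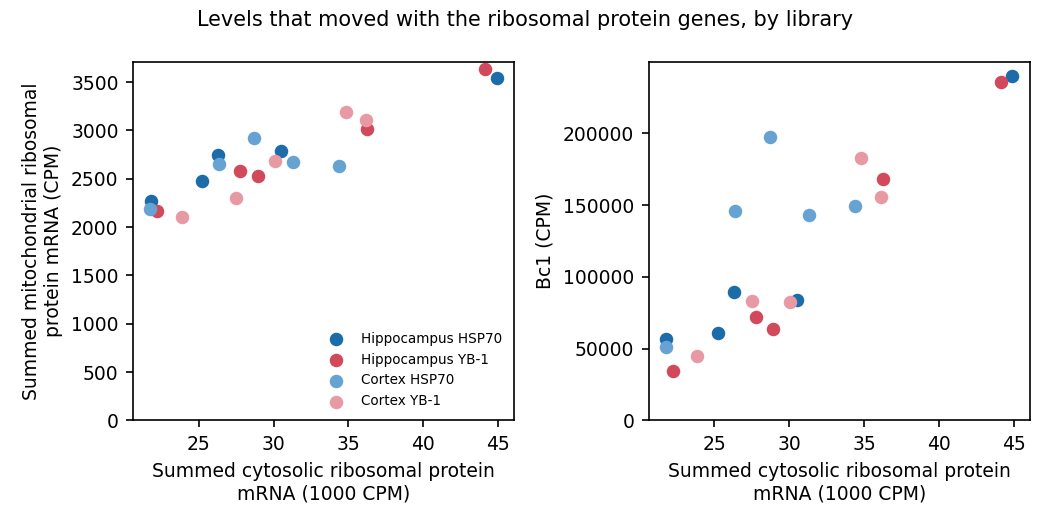
Summed CPM of mitochondrial ribosomal protein genes (left) and CPM of Bc1 (right) against the summed CPM of the cytosolic ribosomal protein genes, with 1 point per library coloured by group and linear axes. The 2 hippocampal libraries with the highest ribosomal protein level are also highest for both.

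Markers of other cells were set beside this level. The 7 choroid plexus markers, of which Clic6 and Otx2 were at 0 in some library, summed to 36.3 to 1669 CPM in hippocampus with HSP70, 135 to 1027 with YB-1, 11.4 to 159 in cortex with HSP70 and 9.73 to 46.4 with YB-1. Their mean log2 deviation, in which each gene counts equally, correlated at 0.54 with that of the members (0.64 in hippocampus and 0.24 in cortex). The correlations of the other lists are of the same kind and not of the sums. The 5 blood markers, with Hba-a2 at 0 in some library, summed to 98.4 to 547, 81.0 to 378, 145 to 881 and 143 to 666 CPM in the same order (0.60, with 0.73 and 0.48). The 8 astrocyte markers, with reads in every library, summed to 4530 to 5032, 3711 to 5400, 3519 to 4280 and 3837 to 4506 CPM (-0.76, with -0.88 and -0.50), and the 10 neuronal markers to 5406 to 6148, 5693 to 6251, 6177 to 7384 and 6858 to 8277 CPM (-0.72, with -0.68 and -0.83). In these lists the sign was the same in both tissues, and also for the 8 markers of cortical neurons (-0.60 and -0.65). The 8 markers of hippocampal neurons had 0.49 in hippocampus and -0.40 in cortex. The neuronal sums did not follow the negative sign throughout. In cortical HSP70 library 5 the neuronal sum (7384 CPM) and the member sum were both the highest of the group. In hippocampal YB-1 library 4 the neuronal sum was the lowest (5693 CPM) and the member sum the highest. The 8 oligodendrocyte markers summed to 3834 to 7071, 3783 to 5122, 1408 to 2342 and 1869 to 2547 CPM, and correlated at 0.09 in hippocampus and 0.73 in cortex. The 7 meningeal markers summed to 1017 to 2063, 654 to 1267, 1369 to 2652 and 1591 to 2399.9 CPM, with -0.31 in hippocampus and 0.76 in cortex. Over all libraries the value was -0.53 for 9 microglial markers, -0.48 for 7 endothelial markers and -0.47 for 7 markers of lymphoid and plasma cells, of which Cd3e and Mzb1 were at 0 in some library. The part of these cells in the level was not tested.

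With YB-1 against HSP70 in the hippocampus, no ribosomal protein gene passed the test, and the largest differences were a lower Rpl23a and higher Rpl30 and Rps18 with YB-1, none beyond the spread between libraries after adjustment. Of 80 members 75 passed the filter on low counts, and 0 were called at an adjusted p of 0.05 by edgeR's quasi-likelihood test with Benjamini-Hochberg adjustment, against a background of 0% of 13723 genes. DESeq2 also called 0, of the members and of all genes. At an unadjusted p of 0.05 it was 1 of 75, against 2.4% of all genes, and 0 of 75 had groups that did not overlap, against 0.474%. The median log2 fold change of the 75 was 0.11, against 0.00 over all genes, and 55 lay on the side of YB-1. Without YB-1 library 4 the median turned to -0.05, and without HSP70 library 5 it was 0.27. These 2 libraries carry the highest summed levels of their groups.

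Among the proteins of the large subunit, Rpl23a, at the nascent chain exit, stood at 6.31, 5.54, 11, 22.2 and 10.4 CPM with HSP70 and at 1.60, 6.04, 3.60, 8.80 and 6.81 with YB-1. HSP70 library 4 was far above the others and the groups overlapped (log2 fold change -1.05 ± 0.44, SE, unadjusted p = 0.0301, adjusted p = 1 by edgeR). Rpl12, at the base of the stalk, stood at 278, 362, 277, 502 and 476 with HSP70 and 320.5, 306, 326, 305 and 232 with YB-1. HSP70 libraries 4 and 5 were high, YB-1 library 5 was low, and the ranges overlapped (log2 fold change -0.35 ± 0.18, SE). Rpl3 was counted at 769, 899, 984, 589 and 1195 and 874, 1209, 1069, 1367 and 934 CPM (log2 fold change 0.30 ± 0.18, SE), and Rpl30 at 25.3, 61.9, 60.01, 16.2 and 67.8 and 55.4, 71.5, 60.8, 77.3 and 65.4 (log2 fold change 0.52 ± 0.33, SE). For Rpl30, HSP70 libraries 1 and 4 were low and the other 3 lay within the range of YB-1. Rpl11, which binds Mdm2 when it is free of the ribosome, stood at 336, 448, 366, 497 and 532 and 346, 377, 429.8, 511 and 289 (log2 fold change -0.16 ± 0.17, SE), and Rpl34 at 39.5, 47.4, 52.2, 40.5 and 104 and 63.8, 14.99, 20.9, 30.6 and 76.3 (log2 fold change -0.45 ± 0.46, SE). Rpl34 was high in HSP70 library 5 and low in YB-1 libraries 2, 3 and 4.

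Among the proteins of the small subunit, Rps18 stood at 94.6, 126, 169.5, 83.9 and 191 CPM with HSP70 and 112, 219, 149, 307 and 154 with YB-1 (log2 fold change 0.50 ± 0.29, SE). YB-1 library 4 was the highest and the ranges overlapped. Rps27a, which is made as a fusion with ubiquitin, was counted at 127, 143, 153, 109 and 187 and 131, 158, 163, 278 and 143 (log2 fold change 0.28 ± 0.20, SE), where YB-1 library 4 was high and the rest overlapped. The adjusted p was 1 for each of these genes, and also for Rps27l (log2 fold change 0.29 ± 0.21, SE). By subunit, the median log2 fold change was 0.09 for 42 large subunit genes, 0.12 for 29 small subunit genes and 0.11 for the 3 stalk genes.

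In the cortex, again no ribosomal protein gene passed the test, and Rpl30, Rpl29 and Rpl31 were among the members with the largest differences, each higher with YB-1. By edgeR 0 of 76 were called at an adjusted p of 0.05, against a background of 0% of 14114 genes. By DESeq2 it was 0 members, against 4 of all genes. At an unadjusted p of 0.05 it was 2 of 76 by edgeR, against 5.48%. The groups overlapped in all 76 members, against 0.829% of all genes whose groups did not. The median log2 fold change was 0.09 (0.01 over all genes), with 55 of 76 on the side of YB-1. Without HSP70 library 1 the median was 0.01.

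Rpl30 stood at 32.8, 36.9, 23.1, 45.7 and 69.4 CPM with HSP70 and 91.4, 87.6, 43.9, 69.4 and 61.7 with YB-1. YB-1 libraries 1 and 2 were the highest and HSP70 library 3 the lowest, and the groups overlapped (log2 fold change 0.77 ± 0.26, SE, unadjusted p = 0.00961, adjusted p = 0.858 by edgeR). Rpl29, a small basic protein of the large subunit, stood at 4.92, 8.69, 6.16, 11.9 and 6.10 and 8.57, 17.6, 11.01, 9.36 and 15.4 (log2 fold change 0.71 ± 0.26, SE, unadjusted p = 0.0147). YB-1 libraries 2 and 5 were high, and HSP70 libraries 2 and 4 lay within the range of YB-1. Rpl32 was counted at 258, 301, 268, 359.6 and 459 and 361, 409, 336, 522 and 432 (log2 fold change 0.32 ± 0.17, SE) and Rpl31 at 126, 82.1, 62.8, 141 and 249.6 and 169, 156, 199, 281 and 208 (log2 fold change 0.62 ± 0.32, SE). Both were highest in YB-1 library 4, and HSP70 library 5 reached into the YB-1 range. On the other side, Rpl23a stood at 4.50, 11, 10.6, 6.31 and 8.35 and 5.001, 8.27, 5.25, 5.14 and 4.81 (log2 fold change -0.52 ± 0.26, SE), Rpl37a, a zinc finger protein, at 384, 686, 661, 642 and 602 and 556, 184, 367, 689.7 and 501 (log2 fold change -0.38 ± 0.28, SE), and Rpl4 at 587, 425, 502, 467 and 521 and 398, 376, 558, 449 and 449 (log2 fold change -0.17 ± 0.14, SE). Rpl37a was low in HSP70 library 1 and in YB-1 libraries 2 and 3.

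Of the small subunit, Rpsa, also known as the laminin receptor, stood at 610.5, 681, 841, 845 and 969.6 CPM with HSP70 and 483, 771, 643, 887 and 613 with YB-1 (log2 fold change -0.22 ± 0.17, SE), with YB-1 library 1 the lowest. Summed with its annotated copy Rpsa-ps10, described below, it stood at 814 ± 112 CPM with HSP70 and 809 ± 93.5 with YB-1 (SD, n = 5 each). Rps10, with 2 to 25 reads a library, differed by -0.65 log2 units. The adjusted p lay between 0.858 and 0.895 for the cortical genes named.

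Between the tissues, with HSP70, 0 of 76 members were called in hippocampus against cortex, against a background of 8.61% of 14616 genes, and 1 of 76 had an unadjusted p under 0.05, against 20.1%. The tissues overlapped in all 76, against 8.75% of all genes in which they did not. The 1 gene was Rps27l, on the hippocampal side (log2 fold change 0.55 ± 0.19, SE, mean 15.2 ± 4.50 against 10.3 ± 1.94 CPM, SD, n = 5 each, edgeR adjusted p = 0.0848). Without hippocampal HSP70 library 1 or library 4, the 2 lowest for this gene, its adjusted p was 0.0380 and 0.0424. With YB-1 the count was again 0 of 76, against 6.51%, and 2 of 76 at an unadjusted p under 0.05, against 16.7%. Rps27l was again on the hippocampal side (log2 fold change 0.58 ± 0.20, SE, 18.5 ± 3.27 against 12.3 ± 1.32 CPM, SD, n = 5 each, edgeR adjusted p = 0.0813), and it was the only member whose groups did not overlap, against 6.43% of all genes. DESeq2 called 0 members in either comparison, against 1617 of 14616 genes with HSP70 and 1214 with YB-1. The median member log2 fold change was 0.09 with HSP70 and 0.06 with YB-1 (0.01 and 0.00 over all genes). Without hippocampal HSP70 library 5 the first turned to -0.09, and without hippocampal YB-1 library 4 the second turned to -0.10.

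Other members that led the tissue comparison were of both subunits. With HSP70, Rps7 stood at 144, 193, 187, 149 and 217 CPM in hippocampus and 144, 127, 111, 151 and 237 in cortex (log2 fold change 0.21 ± 0.17, SE) and Rps24 at 322, 353, 351, 386 and 513 and 389, 399, 386, 393 and 454 (log2 fold change -0.07 ± 0.17, SE). Rpl11 and Rpl23a, given above for hippocampus, had cortical values of 341, 338, 439.9, 401 and 391 and 4.50, 11, 10.6, 6.31 and 8.35 CPM. On the cortical side were Rpl39 with 87.7, 109.8, 116, 96.5 and 151 in hippocampus and 91.1, 121, 143, 124 and 151 in cortex (log2 fold change -0.17 ± 0.17, SE), Rpl35 with 95.7, 114, 108, 149.5 and 165 and 115, 143, 142, 142 and 128 (log2 fold change -0.08 ± 0.17, SE), and Rpl38, known for its part in the translation of Hox mRNAs, with 182, 178, 277, 226 and 387 and 174, 309, 273, 284 and 299.7 (log2 fold change -0.10 ± 0.31, SE). The tissues overlapped in each of them.

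With YB-1, Rpl29 lay on the cortical side, at 5.99, 8.22, 7.60, 11.1 and 8.96 CPM in hippocampus against 8.57, 17.6, 11.01, 9.36 and 15.4 in cortex (log2 fold change -0.57 ± 0.26, SE, unadjusted p = 0.039, edgeR adjusted p = 0.26). Hippocampal libraries 4 and 5 lay within the cortical range and the other 3 below it. Rpl12 had cortical values of 294, 317, 389, 436 and 343, Rpl23 of 208, 262, 181, 193 and 237 against 137, 171, 192, 243 and 209 in hippocampus, and Rpl21 of 263, 355, 231, 305 and 246 against 178, 235, 259.7, 340.1 and 255. On the hippocampal side, Rps12 stood at 236, 383, 319, 492 and 276 and 267, 329.8, 236, 292 and 274 (log2 fold change 0.29 ± 0.17, SE), Rpl36a at 101, 138, 149, 227 and 137 and 133, 143, 107, 125 and 115 (log2 fold change 0.27 ± 0.17, SE), Rpl28 at 342, 561, 451, 601 and 527 and 515, 425, 209.8, 394 and 411 (log2 fold change 0.34 ± 0.24, SE), and Rpl37a at 308, 695, 437, 1273 and 518 and 556, 184, 367, 689.7 and 501 (log2 fold change 0.49 ± 0.36, SE). Hippocampal YB-1 library 4 was highest for Rps12, Rpl36a, Rpl28 and Rpl37a, and each overlapped between the tissues. In same-numbered pairs the members went both ways. Hippocampus was the higher tissue in 5 of 76 members for YB-1 number 1 and in 67 of 76 for YB-1 number 4.

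No member passed the test of whether the treatment difference itself differed between the tissues, with 0 of 76 members called and 0 at an unadjusted p under 0.05, against 0% and 1.55% of 14616 genes. The smallest p among members was that of Rpl29 (log2 fold change -0.72 ± 0.37, SE, unadjusted p = 0.0621, edgeR adjusted p = 0.9999), followed by Rpl12 (log2 fold change -0.32 ± 0.23, SE) and Rpl37a (log2 fold change 0.67 ± 0.51, SE). The median over the members was -0.01.

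**Figure D4:**
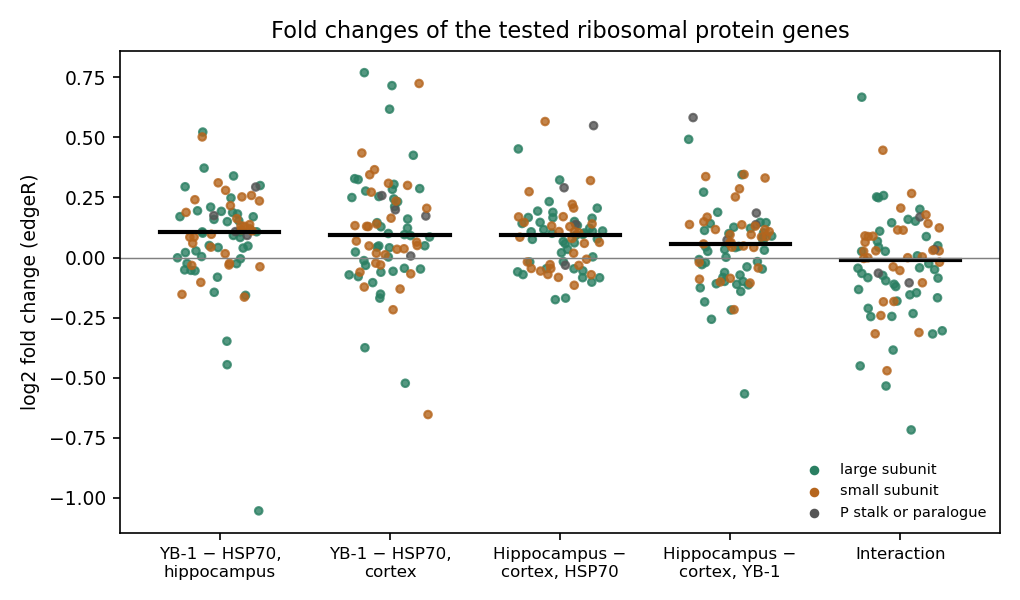
Log2 fold change of each tested ribosomal protein gene (edgeR) in the 5 comparisons, coloured by subunit, with the median as a black bar; the interaction is the hippocampal minus the cortical treatment difference. Most genes lie within 0.5 of 0, and the medians lie between -0.01 and 0.11.

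Across the 5 comparisons, 70 of 76 members or more stayed within 0.5 log2 units of 0, with 72 of 75 in the hippocampal treatment comparison and 74 of 76 in each tissue comparison.

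The gene whose count varied most was Rpl26, a protein of the large subunit near the exit tunnel, and its values followed the replicate number and not the group. It was chosen here after its values were seen. In CPM it stood at 18.6, 14.4, 23.1, 457 and 375 in hippocampus with HSP70 and at 11.02, 22.8, 9.84, 592 and 297 in cortex, and with YB-1 at 183, 34.8, 235, 413 and 24.5 and 309.9, 26.6, 214, 394 and 19.2. Libraries HSP70 1, 2 and 3 and YB-1 2 and 5 were low in both tissues, and the remaining 5 numbers were high in both. The ratio of the highest to the lowest library was 60.2, against a median of 2.33 over the members. Its log2 fold change between treatments was 0.00 in hippocampus with a standard error of 1.22. A treatment difference in Rpl26 was thus not resolvable with 5 libraries a group.

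Of the 50-base windows of Rpl26 71.3% occur in other genes, most often in Gm15772, an annotated processed pseudogene. Gm15772 stood at 279.9, 346, 437, 2.12 and 306 CPM in hippocampus with HSP70, 308, 444, 361, 5.55 and 242 in cortex, 163, 532, 214, 335 and 408 with YB-1 in hippocampus and 229, 612, 171, 299.8 and 380.5 in cortex. Of the reads on the pair, Rpl26 took 2.65% to 6.24% in the 10 libraries of the 5 low numbers, 52.3% to 57.5% in the 8 libraries of HSP70 5 and YB-1 1, 3 and 4, and 99.5% and 99.1% in the libraries of HSP70 4. The exact 95% binomial intervals (counting error only) were 5.42% to 7.15% for hippocampal HSP70 library 1, 53.6% to 56.5% for library 5 and 99.3% to 99.7% for library 4. The shares thus fell into 3 separate levels, and both tissues of a number fell into the same level. The sum of the pair was 452 ± 146 CPM in hippocampus with HSP70, 509 ± 155 with YB-1, 459 ± 115 in cortex with HSP70 and 531 ± 139 with YB-1 (SD, n = 5 each), so the sum overlapped between all groups.

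**Figure D5:**
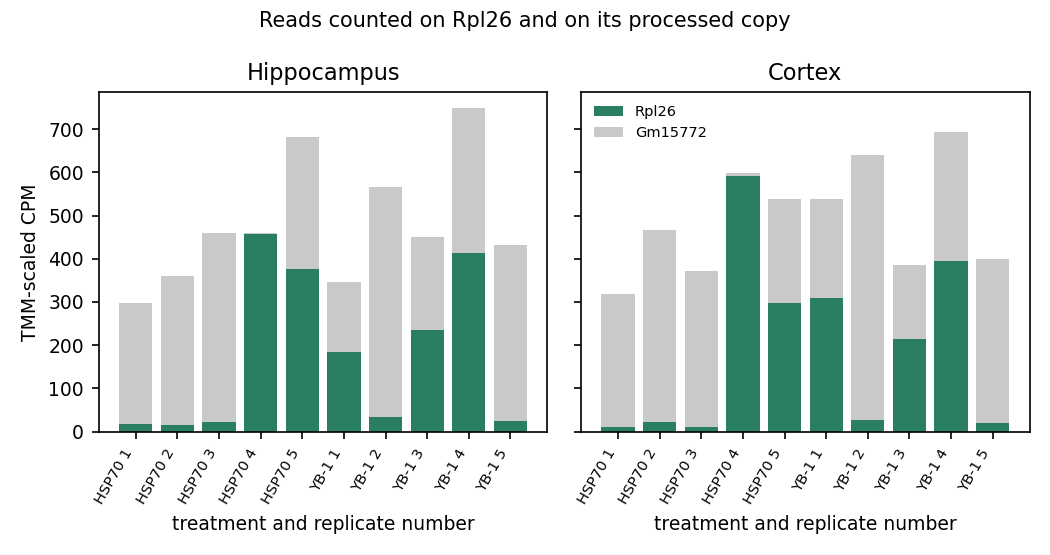
Stacked TMM-scaled CPM of Rpl26 (green) and Gm15772 (grey) in each hippocampal (left) and cortical (right) library, on a linear axis from 0. Rpl26 is almost absent in the same 5 numbers in both tissues, while Gm15772 is almost absent in HSP70 number 4 in both.

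Other pairs of a member and an annotated copy, also chosen after their values were seen, followed the number as well. Rpsa-ps10 stood at 104 to 233 CPM in both tissues of HSP70 1 and YB-1 1, 2, 3 and 5, and at 0.51 to 3.49 CPM in both tissues of the other 5 numbers. Rpsa took 67.9% and 67.5% of the pair's reads in YB-1 1, 82.5% to 83.8% in the other 4 of these numbers, and 99.6% to 99.9% elsewhere. Rps2-ps10 stood at 16.9 to 76.3 CPM in both tissues of HSP70 1, 3, 4 and 5 and YB-1 3 and 5, and at 0 to 1.71 CPM in HSP70 2 and YB-1 1, 2 and 4. The likeness between same-numbered tissues was strongest for Rpl26 (correlation 0.97 over 10 numbers), Rpsa (0.95) and Rpl34 (0.94), against a median of 0.47 over the members, as descriptions. The cortical values of Rpl34 were 39.8, 30.5, 31.4, 38.8 and 100.1 with HSP70 and 75.1, 20.1, 21.6, 27.4 and 95.8 with YB-1, high in HSP70 5 and YB-1 1 and 5 in both tissues. An annotated copy of it, Rpl34-ps2, stood at only 0 to 1.45 CPM over all libraries. The cause of these levels was not tested.

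The genes around the ribosome were read in the same way. Of the 77 mitochondrial ribosomal protein genes 76 were tested, and edgeR called 0 in each comparison. At most 6 had an unadjusted p under 0.05, between the tissues with HSP70, against 20.1% of all genes. DESeq2 called 1 in that comparison, against 1617 of 14616 genes. The median log2 fold changes were 0.01 for both treatment comparisons, 0.09 for the tissues with HSP70 and 0.07 with YB-1. Of 5 tested ribosomal protein genes with other symbols, edgeR and DESeq2 called 0. At most 1 had an unadjusted p under 0.05, which was Rps3a1 between the treatments in cortex, against 5.48% of all genes. Rps3a1 stood there at 317.3 ± 80.0 CPM with YB-1 and 230.7 ± 66.7 with HSP70 (SD, n = 5 each, edgeR unadjusted p = 0.0449, adjusted p = 0.858). In hippocampus it stood at 326.6 ± 92.6 CPM with YB-1 and 245.3 ± 68.5 with HSP70 (SD, n = 5 each, edgeR adjusted p = 1). Among 22 elongation factors and other TOP genes, DESeq2 called 2 between the tissues with HSP70, against 1617 of 14616 genes. There edgeR called 1, against 8.61% of all genes. The 1 gene was Nap1l1, a nucleosome assembly protein, which was lower in hippocampus than in cortex with HSP70 (54.1 ± 8.42 against 86.3 ± 22.5 CPM, log2 fold change -0.67 ± 0.17, SE, edgeR adjusted p = 0.0118). Eef1a1, the factor that brings aminoacyl-tRNA to the ribosome, stood at 2477 ± 181 and 1927 ± 155 CPM in that comparison (adjusted p = 0.0625). Of 39 ribosome biogenesis genes edgeR called 0. At most 6 had an unadjusted p under 0.05, between the tissues with YB-1, against 16.7% of all genes. DESeq2 called 1 in that comparison, against 1214 of 14616 genes. By edgeR, Tcof1, which acts in ribosomal RNA transcription, had the smallest adjusted p, 0.0606, in hippocampus against cortex with YB-1. Of 25 genes of the mTOR pathway and TOP regulation 2 were called between the tissues with HSP70 and 1 with YB-1, by edgeR and by DESeq2. These shares, 2 of 25 and 1 of 25, lay below the 8.61% and 6.51% of all genes called in these comparisons by edgeR. DESeq2 called 1617 and 1214 of all 14616 genes in them. Deptor, an inhibitor of mTOR, was lower in hippocampus with HSP70 (11.6 ± 2.38 against 25.8 ± 4.81 CPM, adjusted p = 0.00195) and with YB-1 (12.4 ± 4.41 against 26.2 ± 7.04 CPM, adjusted p = 0.00511). Ddit4, which restrains mTOR under stress, was higher in hippocampus with HSP70 (51.9 ± 8.34 against 32.9 ± 7.05 CPM, adjusted p = 0.0144) and stood at 38.8 ± 9.83 against 29.6 ± 4.02 with YB-1 (adjusted p = 0.233). Between the treatments edgeR and DESeq2 called 0 genes of these 5 lists, which held 5 to 76 tested genes. Over all genes edgeR called 0, and DESeq2 called 0 in hippocampus and 4 in cortex. At most 2 a list had an unadjusted p under 0.05, against 2.4% of all genes in hippocampus and 5.48% in cortex.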

How the data were processed

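Per the labels' protocols, poly(A) RNA with an integrity number no lower than 8 went into directional, single-end libraries. The authors deposited a table of raw read counts for each library, with Ensembl identifiers. The submitters' processing notes name GRCm39, Trimmomatic, STAR and featureCounts. Tool versions, strand setting and annotation release were not given in the sources used here. Ambiguous reads (4.12% to 4.58%) and reads outside genes (2.46% to 4.59%) stayed out of library sizes and tests, and the entry for multimapping reads was 0.

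Symbols, biotypes and transcript lengths came from GENCODE M21 (99.5% of identifiers matched), and promoters from RefSeq GRCm38.p6. Counts were tested with edgeR 4.0.16 (TMM, filterByExpr, robust quasi-likelihood F-test, Benjamini-Hochberg threshold 0.05 over all genes), the treatments within each tissue (10 libraries) and the tissues and the interaction in a model of all 20. CPM are TMM-scaled over the 20 libraries, with 0.5 added before log2. The scripts were tested on simulated data, with changes set in genes drawn from all those tested. Of 2-fold changes, 44.8% were recovered between the treatments in hippocampus, 64.2% in cortex, 58.2% between the tissues with HSP70 and 26.9% for the interaction. Of 1.5-fold changes it was 8.96%, 16.4%, 11.9% and 0%. A member that was not called can thus still differ by such amounts. DESeq2 1.42.0, other scalings, no filter, a replicate block and the leaving out of each library were alternatives.

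The members and lists were chosen with earlier results of these data known. Values in every library are given for the members with the smallest p in each direction of the treatment (5) and tissue (6) comparisons, 3 for the interaction, the duplicated copies with their parents, and the 3 highest and lowest per kilobase; a few of these are given by their range, and some are not reported here. Same-numbered libraries of the tissues deviated together (correlations 0.20 to 0.62 with HSP70 and 0.21 to 0.39 with YB-1 over 14616 genes). Each hippocampal library was closest to the same number in cortex, except YB-1 number 1, which was closest to number 5. The numbers were therefore read as pairing the tissues, which the labels do not state. Same-numbered libraries of the 2 treatments did not deviate together (-0.28 to 0.50 in hippocampus, -0.14 to 0.17 in cortex), except number 1 in hippocampus (0.50).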

Additional observations from a re-analysis of the deposited data

Results flagged for a closer look

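In 11 of 132 sets of 5 libraries, 1 library stood apart from the other 4 (the gap to its nearest neighbour, relative to the whole range, was above Dixon's 95% value). Chance flags about 1 in 20 such sets. The sets share libraries in which the members moved together, so the flags are not independent of each other. Hippocampal HSP70 library 5, the library with the highest summed level, was the highest for Rps14 (2598 CPM, the others 888 to 1346), Rps12 (444 CPM, 258 to 308) and Rpl34 (104 CPM, 39.5 to 52.2). Cortical HSP70 library 5 was the highest for Rpl34 (100.1 CPM, 30.5 to 39.9) and for Rps24 (454 CPM, 386 to 399). Hippocampal YB-1 library 4 was the highest for Rps24 (650 CPM, 286 to 381) and Rps27a (278 CPM, 132 to 163).

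Low libraries were cortical HSP70 library 1 for Rpl37a (384 CPM, the others 602 to 687) and Rpl38 (174 CPM, 273 to 309), and hippocampal YB-1 library 5 for Rpl12 (232 CPM, 305 to 326). Rpl23a was high in cortical YB-1 library 2 (8.27 CPM, the others 4.81 to 5.25).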

How the results depend on the processing

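Of the counts of called members in the 5 comparisons, all were 0 with edgeR and stayed 0 with DESeq2, with library totals in place of TMM, without Bc1 and the mitochondrial genes, with TMM factors taken without the members, with no filter on low counts and with a replicate block. The only count that moved was that of the tissues with HSP70, which was 0 to 1 with 1 library left out at a time: without hippocampal HSP70 library 1 or 4, Rps27l was called. For Rpl35 between the tissues the direction turned: leaving out 1 library gave a log2 fold change of -0.1994 to 0.0011 with HSP70 and -0.2284 to 0.0107 with YB-1, above 0 without hippocampal HSP70 library 1 and without cortical YB-1 library 2.

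With the replicate block, which pairs the tissues by number, the median member log2 fold change was 0.07 with HSP70 and 0.04 with YB-1; between the treatments, whose numbers do not pair the libraries, it was 0.10 in each tissue, and the block changed no call of a member. The medians depended more on single libraries: leaving out 1 at a time gave -0.05 to 0.27 (treatments, hippocampus), 0.01 to 0.19 (treatments, cortex), -0.09 to 0.17 (tissues, HSP70), -0.10 to 0.15 (tissues, YB-1) and -0.15 to 0.15 (interaction). With both hippocampal libraries of highest summed level left out, an alternative chosen after seeing the data, they were 0.13 between the hippocampal treatments, -0.09 and -0.10 between the tissues and 0.02 for the interaction, with 0 members called. Low counts limit what can be said of Rpl24, Rps10, Rpl3l, Rpl39l and Rpl10l, and shared sequence limits what can be said of the 46 members above.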
